A study of Mus musculus with 6 samples.

Results

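The genes described here are the apelin receptor, its ligands and the G-protein machinery through which such a receptor acts: α, β and γ subunits, regulators of G-protein signalling (RGS proteins), receptor kinases, arrestins and the Gpsm modulators. They were chosen by function as a list of 46 gene symbols, and a probe belonged to the list when its transcript accession matched one of those symbols. This list and all further lists below were chosen with earlier results of these data known. Shares of everything tested given beside them are therefore descriptions and no independent support. Of the 46 genes, 45 had a probe, among 20018 symbols with a probe on the array. Of these 45, 43 entered the test, among 24232 genes and unnamed probes tested. Expression was measured on 6 one-colour Agilent arrays in endothelial cells, the cells that line vessels, sorted by flow cytometry from mouse skin. There were 3 APJ KO samples, in which the apelin receptor APJ is deficient, and 3 wild-type samples. All 6 were of strain C57Bl/6J and none was treated after sorting. The scanner files, though no label, are named for an embryonic stage. The labels used here state neither the allele, nor any Cre driver, nor the surface markers of the sort, so whether the receptor was deleted in all tissues or in endothelium alone is not known here. Each label carries 1 mouse number. Both Xist, read from the inactive X chromosome, and Ddx3y, on the Y chromosome, were nevertheless well above background on all 6 arrays. Of the other Y-linked genes looked at, Eif2s3y was so on all 6 arrays and Kdm5d on 0. How many animals went into a sample is therefore taken as unknown, and the p-values cover no more than the spread among these samples, which may be technical.

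APJ is a seven-helix receptor that the secreted peptides apelin and Elabela (Apela) activate. An occupied receptor of this class makes a Gα subunit exchange GDP for GTP, after which Gα and the Gβγ dimer act on separate effectors. Gαi and Gαo restrain adenylyl cyclase, Gαq opens the phospholipase C and calcium route, and Gαs and its olfactory relative Gαolf stimulate adenylyl cyclase. RGS proteins end the signal by speeding GTP hydrolysis, and receptor kinases with arrestins desensitise the receptor itself. APJ is known for coupling to Gαi and, in endothelium, for roles in the growth and sprouting of vessels.

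Levels below are log2 signals relative to the 75th percentile of the same array, so 0 stands for a signal equal to that percentile, and values are comparable between arrays for 1 probe but not between probes. The 75th percentile of intensity itself lay between 251.8 and 399.7, and each array had 50.4% to 58.0% of its probes well above background. A difference is APJ KO minus wild type on the log2 scale, with the standard error (SE) from limma. All 10 endothelial markers tested, Cdh5, Pecam1 and Kdr among them, were well above background on all 6 arrays. Their summed level, on the log2 scale, lay between 9.70 and 9.82 in APJ KO and between 9.68 and 9.82 in wild type, with 54.3% to 57.1% of it from the Egfl7 probe. Of the 10 differences 5 lay above 0 and 5 below, from -0.13 to 0.19. The arrays came from 2 slides, scanned as 2 batches, with replicates 1 and 2 of both genotypes on slide 1 and replicate 3 of both on slide 2. With 6 arrays, their number sets a limit to the precision.

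Aplnr, the gene for the receptor (Entrez gene 23796, chromosome 2), was lower in APJ KO and was the only gene of the list whose level changed past the test. Its log2 level read 1.89, 1.71 and 2.26 on APJ KO arrays 1 to 3, against 3.35, 3.77 and 3.82 on the wild-type arrays. All APJ KO arrays lay below all wild-type arrays, on both slides. The means were 1.95 ± 0.28 in APJ KO and 3.65 ± 0.26 in wild type (SD, n = 3 each), and the signal in APJ KO was 0.309 times that in wild type, with a 95% interval of 0.226 to 0.423. The difference was -1.69 ± 0.19 (limma adjusted p = 0.0237), with -1.76 within slide 1 and -1.57 within slide 2. The Aplnr probe remained well above background on all 6 arrays. It was the 1 Aplnr probe on the array, and its place relative to the deleted part of the gene is not known here, so the value checks the labels only in part. In a bulk sample, fewer cells carrying a transcript and less of it per cell cannot be told apart.

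The call for Aplnr rested on few arrays, although its size hardly moved. A fit that took the replicate number as a block gave a limma adjusted p of 0.0789, and one with the slide as a block 0.0153. Same-numbered arrays deviated together, but arrays of different number on slide 1 did so at least as much. Leaving out 1 array kept the call without APJ KO replicate 3 (0.036). The call was lost without APJ KO replicate 1 (limma adjusted p = 0.126), APJ KO replicate 2 (0.0966), wild type replicate 1 (0.0519), wild type replicate 2 (0.148) or wild type replicate 3 (0.0636). Over all of these fits the difference stayed between -1.84 and -1.57. A two-sided exact permutation test over the 6 arrays gave p = 0.1, the smallest that 3 arrays against 3 allow.

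Apln, which encodes apelin and is a marker of sprouting endothelium (chromosome X), gave 5.38, 5.48 and 5.16 on the APJ KO arrays, against 5.13, 5.21 and 4.97 on the wild-type arrays. APJ KO replicates 1 and 2 lay above every wild-type array, while replicate 3, on the other slide, fell within the wild-type range. Within each slide the APJ KO level exceeded wild type, by 0.26 on slide 1 and 0.20 on slide 2. The difference of 0.24 ± 0.12 did not pass (limma adjusted p = 0.775, exact permutation p = 0.2), and its 95% interval as a ratio was 0.967 to 1.44. Apela, the gene of the other ligand, had no matching probe and was not analysed here.

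**Figure D1:**
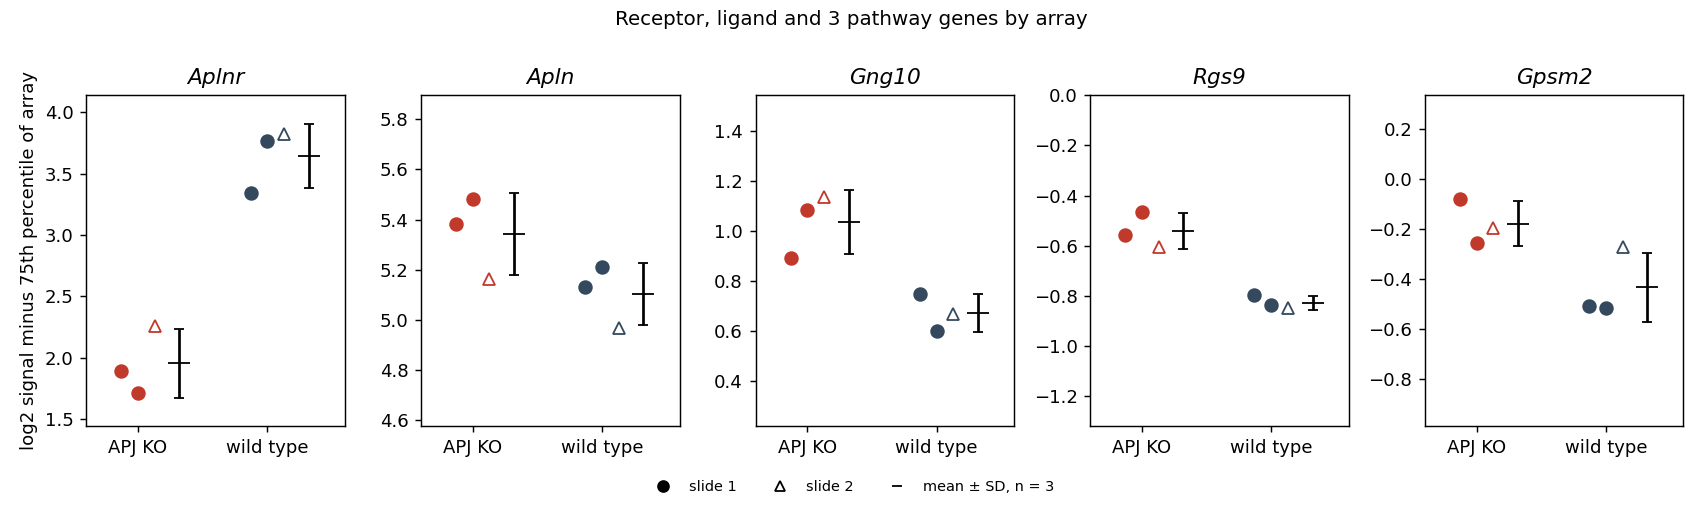
Log2 level relative to the 75th percentile of the array (vertical axis) on each APJ KO and wild-type array for Aplnr, Apln, Gng10, Rgs9 and Gpsm2, with slide 1 as filled circles, slide 2 as open triangles and the mean ± SD of 3 arrays beside them. The APJ KO arrays lie below all wild-type arrays for Aplnr, above them for Gng10, Rgs9 and Gpsm2, and overlap them for Apln.

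Among the other 42 genes of the list none passed the test, and the smallest limma adjusted p was 0.296. Of the 43 tested, 0 were higher and 1 lower, beside 0.367% higher and 0.186% lower of everything tested. With the replicate block the count over everything tested was 4 higher and 1 lower, in place of 89 and 45. At an unadjusted p under 0.05 the list held 3 genes, Aplnr, Gng10 and Rgs9, where 8.03% of everything tested had such a p. The 42 differences ran from -0.23 for Rgs2 to 0.41 for Gnal, ratios of 0.851 to 1.33, and 21 of them were under 0.1 in size. Of all 43, 23 lay above 0 and 20 below, with a median of 0.01, while 43.5% of everything tested lay above 0 with a median of -0.02. Under the 14 alternatives tried, no gene of the list except Aplnr passed, and the smallest adjusted p reached was 0.142.

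How tightly these differences were bounded varied with the gene. For 27 of the 43, or 62.8%, the 95% interval stayed within a 1.5-fold change either way, where 72.7% of everything tested did so. The 16 outside that bound were Aplnr, Gnai3, Gna12, Gna13, Gna14, Gnal, Gng10, Rgs1, Rgs2, Rgs7, Rgs10, Rgs14, Rgs18, Rgs20, Grk5 and Gpsm3. Given each gene's own SE, the log2 difference needed to pass had a median of 1.02, from 0.57 for Gnaq to 4.07 for Rgs1. Smaller changes were therefore not detectable with these arrays, and a p that misses the threshold does not show that the levels were alike.

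**Figure D2:**
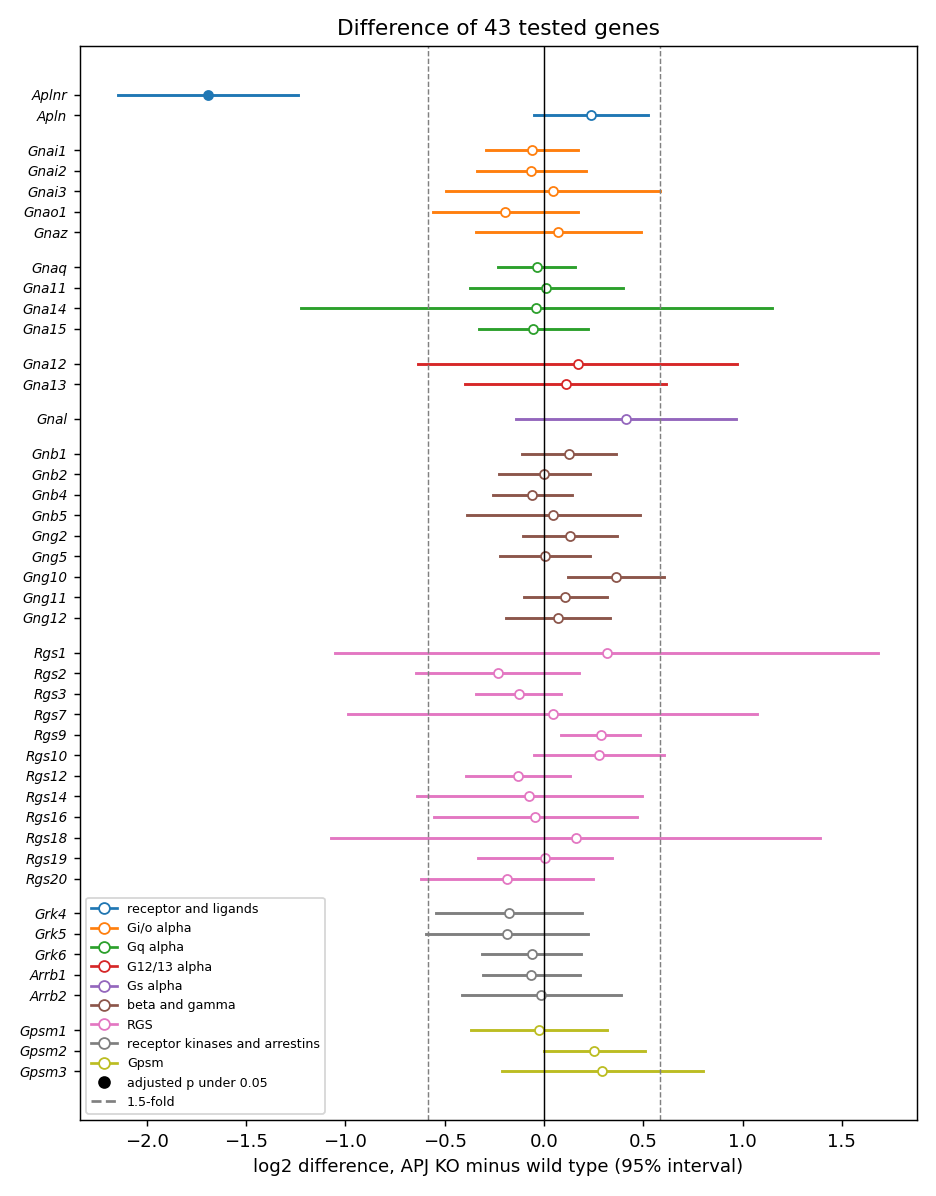
Log2 difference, APJ KO minus wild type (horizontal axis), with its 95% interval for each of the 43 tested genes, coloured by role, filled where the adjusted p was under 0.05, with dashed lines at a 1.5-fold change. Aplnr stands apart at -1.69, the other 42 points lie between -0.23 and 0.41, and the widest intervals belong to Rgs1, Rgs18, Gna14 and Rgs7.

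All 12 genes for α subunits were measured on every array, 6 above 0 and 6 below, with a median difference of -0.01. The Gαi and Gαo class had a median of -0.06. Gnai1, Gnai2 and Gnai3, the inhibitory subunits, differed by -0.06, -0.06 and 0.05, Gnao1, a subunit abundant in neurons, by -0.19, and Gnaz, a relative that resists pertussis toxin, by 0.07. For 4 of these 5 the 95% interval stayed within 1.5-fold, and their limma adjusted p values were all 1.00 when rounded. In the Gαq class Gnaq and Gna11, the broadly expressed subunits, differed by -0.04 and 0.01, Gna14 by -0.04 and Gna15, a subunit of blood cells, by -0.05. Gnaq had the narrowest bound of the list, a ratio of 0.853 to 1.11. Gna12 and Gna13, which form a class of their own, differed by 0.17 and 0.11 with intervals that reached past 1.5-fold.

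Gnal, which encodes Gαolf, had the largest difference of the 42 in the fit reported here, though not under every alternative. Its level read -2.60, -2.17 and -2.60 on the APJ KO arrays, against -2.59, -3.35 and -2.68 on the wild-type arrays. The groups overlapped, wild type replicate 2 being the low array. The difference of 0.41 ± 0.23 had a limma adjusted p of 0.855 and was 0.58 within slide 1 but 0.08 within slide 2. It was 0.19 with normexp, 0.25 with the mean over probes, 0.27 without APJ KO replicate 2 and 0.18 without wild type replicate 2. A second Gnal probe gave 0.09, and Gnal was chosen for its values after they were seen.

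Genes for β and γ subunits lay above 0 in 8 of 9 cases, with a median difference of 0.07. The count was also 8 of 9 under normexp, quantile normalisation and the authors' own scaling, but 5 of 9 with slide 1 alone and 5 to 8 of 9 with 1 array left out. Gnb1, Gnb2 and Gnb5, which encode β subunits, differed by 0.13, 0.0023 and 0.05, and Gnb4, the 1 gene below 0, by -0.06. Gng2, Gng5, Gng11 and Gng12, which encode γ subunits that anchor the dimer to the membrane, differed by 0.13, 0.01, 0.11 and 0.07. The 95% interval stayed within 1.5-fold for all of these 8 genes.

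Gng10, the γ subunit gene outside that bound, had the smallest adjusted p of the 42. It gave 0.89, 1.08 and 1.14 on the APJ KO arrays, against 0.75, 0.60 and 0.67 on the wild-type arrays. Every APJ KO array exceeded every wild-type array. The difference was 0.36 ± 0.10, a ratio of 1.29 with a 95% interval of 1.09 to 1.52 (limma adjusted p = 0.296), and it was 0.31 within slide 1 and 0.47 within slide 2. Over the alternatives the adjusted p lay between 0.17 and 0.999.

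Of the 14 RGS genes 12 were tested, 6 above and 6 below 0, with a median difference of -0.02. Rgs4 was well above background on 1 of 6 arrays, wild type replicate 2, and Rgs17 on 0 of 6, so neither was tested. Rgs9, an R7-family member known from photoreceptors and striatum that works in a complex with Gβ5, was the one with an unadjusted p under 0.05. Its values were -0.56, -0.46 and -0.61 on the APJ KO arrays, against -0.80, -0.84 and -0.85 on the wild-type arrays. The groups did not overlap, and the spread within each was small. The difference was 0.29 ± 0.08, a ratio of 1.22 with a 95% interval of 1.06 to 1.40 (limma adjusted p = 0.329), and within slides it was 0.31 and 0.24. The other Rgs9 probes gave 0.33, again without overlap, and 0.25, with overlap. Gnb5, which encodes that partner, and Rgs7, the other R7-family gene of the list, differed by 0.05 and 0.04 with overlapping arrays.

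The remaining RGS genes did not pass in either direction. Rgs2, which acts preferentially on Gαq, differed by -0.23 and Rgs16 by -0.04. A second, dimmer Rgs2 probe gave -0.03. Rgs3, also an inhibitor of Gαi and Gαq signalling, differed by -0.13, and Rgs12 and Rgs14, which carry a second Gαi-binding motif, by -0.13 and -0.07. Rgs19 and Rgs20, members of the RZ family, differed by 0.01 and -0.19. Rgs1 and Rgs18, known from leukocytes and platelets, and Rgs10, also rich in immune cells, differed by 0.32, 0.16 and 0.28. Of the 12, only 5 had an interval within 1.5-fold, Rgs3, Rgs9, Rgs12, Rgs16 and Rgs19.

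The 3 receptor kinase and 2 arrestin genes all lay below 0, where 43.5% of everything tested lay above 0. Their median was -0.06, with a range of -0.19 to -0.01, and none passed. Grk4, Grk5 and Grk6 phosphorylate active receptors, and they differed by -0.18, -0.19 and -0.06. Arrb1 and Arrb2, the β-arrestins that bind the phosphorylated receptor, differed by -0.06 and -0.01. The sign of Arrb2 turned under the authors' own scaling, to 0.00238, which left 4 of the 5 genes below 0. The count was also 4 of 5 without APJ KO replicate 1 or 2, or without wild type replicate 2 or 3. A second Grk6 probe gave 0.05. In 4 of the 5 the interval stayed within 1.5-fold, Grk5 being the exception. Among the Gpsm genes, whose products hold Gαi in its GDP form, Gpsm1 differed by -0.02, Gpsm2 by 0.25 and Gpsm3, a gene of blood cells, by 0.29.

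Arrays of the genotypes did not overlap for 4 genes above wild type and 2 below, where over everything tested 6.37% did not overlap upward and 5.86% downward. Aplnr and Rgs3 were the genes below, and Gng2, Gng10, Rgs9 and Gpsm2 those above. Gng2, Gpsm2 and Rgs3 were chosen here after their values were seen. Gpsm2, which orients the mitotic spindle through Gαi, gave -0.08, -0.26 and -0.20 on the APJ KO arrays, against -0.51, -0.52 and -0.27 on the wild-type arrays. Its difference of 0.25 ± 0.11 (limma adjusted p = 0.623) was 0.34 within slide 1 and 0.08 within slide 2. Gng2 gave 5.40, 5.37 and 5.47 on the APJ KO arrays, against 5.14, 5.36 and 5.35 on the wild-type arrays, APJ KO replicate 2 and wild type replicate 2 being almost equal. Rgs3 gave 4.69, 4.74 and 4.90 on the APJ KO arrays, against 4.90, 4.90 and 4.91 on the wild-type arrays. Its other probes differed by -0.0045 and -0.04.

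Where several probes of a gene were tested, they often differed in sign. Of 66 probes for the list, 60 were tested, and 12 genes had more than 1 tested probe. In 7 of these every probe lay on the same side of 0, and in Gna13, Gnb1, Grk6, Rgs12 and Rgs19 they did not. Over all probes other than that of Aplnr the smallest limma adjusted p was 0.277, for a probe of Rgs9.

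Levels also differed by slide, in these genes as in the rest of the array. The difference between slide means exceeded that between genotype means for 30 of the 43 genes, or 69.8%, beside 66.2% of everything tested. The slide 2 arrays lay wholly above the slide 1 arrays for 14 genes and wholly below for 11, together 25 of 43, beside 41.8% of everything tested. Each slide held both genotypes in equal numbers. With the slide as a block, Aplnr was again the 1 gene of the list to pass. The sign of the genotype difference was the same within both slides for 31 of the 43 genes.

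**Figure D3:**
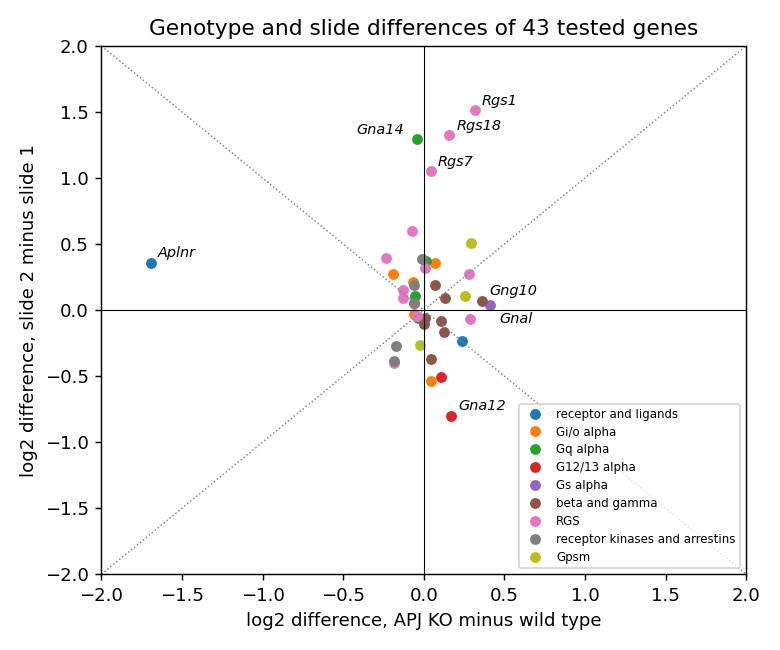
Log2 difference between genotypes, APJ KO minus wild type (horizontal axis), against the log2 difference between slides, slide 2 minus slide 1 (vertical axis), 1 point for each of 43 genes coloured by role, with dotted lines where both are equal in size. Aplnr lies far to the left at -1.69, while Rgs1, Rgs18, Gna14 and Rgs7 lie high, above 1 on the slide axis and between -0.04 and 0.32 on the genotype axis.

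Slide 2 exceeded slide 1 by more than 1 on the log2 scale for 4 genes, Rgs1 (1.51), Rgs18 (1.32), Gna14 (1.29) and Rgs7 (1.05), taken by that size after the values were seen. Rgs1, a brake on chemokine receptors in lymphocytes, read -1.57, -1.43 and -0.13 on the APJ KO arrays, against -1.78, -2.04 and -0.26 on the wild-type arrays. Rgs18, which restrains platelet activation, read -1.63, -1.63 and -0.57 on the APJ KO arrays, against -1.76, -2.17 and -0.38 on the wild-type arrays. In both, the third replicate of either genotype was far above the others. Gna14, a Gαq-class subunit, read -3.93, -3.74 and -2.58 on the APJ KO arrays, against -3.62, -4.01 and -2.49 on the wild-type arrays. Rgs7 read -3.95, -4.22 and -2.62 on the APJ KO arrays, against -3.81, -3.90 and -3.21 on the wild-type arrays. On slide 1 both Gna14 and Rgs7 were near the lowest level called well above background, -4.74 to -4.36 on those arrays. The size of their slide differences is therefore uncertain. In the opposite direction Gna12 was lower on slide 2 by a difference of -0.80, and Gnai3 and Gna13 by -0.54 and -0.51.

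**Figure D4:**
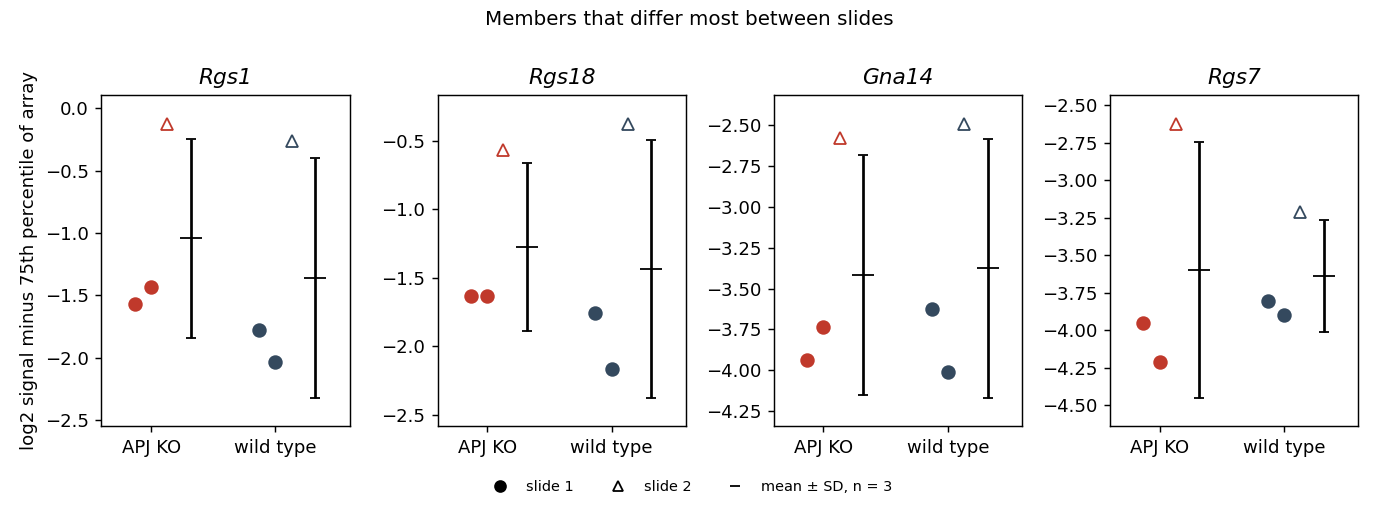
Log2 level relative to the 75th percentile of the array (vertical axis) on each APJ KO and wild-type array for Rgs1, Rgs18, Gna14 and Rgs7, with slide 1 as filled circles, slide 2 as open triangles and the mean ± SD of 3 arrays beside them. In each panel the open triangle stands above both filled circles in APJ KO and in wild type.

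Several genes of the list are known from blood cells, and markers of those and other cells are given beside them. No marker of any cell type passed the test. Of 6 erythroid markers 4 were tested, all above 0, with a median of 0.17 (smallest limma adjusted p 0.981). Their summed log2 level was 7.69 to 8.52 in APJ KO and 7.54 to 8.45 in wild type. Without APJ KO replicate 1 the erythroid median was -0.11. Fibroblast, mural and neural markers had medians of -0.10, -0.15 and -0.11. Of 10 macrophage markers listed, 8 were tested and 7 of these lay above 0. Only 4 of the 8 were well above background on all 6 arrays, and their median was 0.27 (smallest limma adjusted p 0.254). The other 4, Lyz2, C1qa, C1qc and Adgre1, entered the test through APJ KO alone, so their sizes give no support. Cd68 had no matching probe, and Fcgr1 was too dim to test. The summed log2 level of the 8 was 3.38 to 3.47 in APJ KO and 3.29 to 3.71 in wild type, but 58.6% to 74.4% of that signal was the Csf1r probe. Csf1r, at -0.23, was the 1 marker of the 8 below 0. Without Csf1r the sum was 2.00 to 2.17 in APJ KO and 1.71 to 1.74 in wild type. That sum still holds the 4 markers that entered through APJ KO alone, so its lack of overlap gives no support. All 8 platelet and megakaryocyte markers were tested, 7 lay above 0 with a median of 0.26 (smallest limma adjusted p 0.0697), and their summed level was 3.04 to 3.39 in APJ KO and 2.76 to 2.87 in wild type, also without overlap. Of 7 lymphocyte and pan-leukocyte markers 6 were tested, 3 above and 3 below 0, with a median of 0.02 (smallest limma adjusted p 0.569) and a summed level of 2.87 to 3.20 in APJ KO and 2.94 to 3.05 in wild type.

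Lyve1, Prox1 and Flt4 mark lymphatic endothelium, and keratins such as Krt14 mark the epidermis. All 6 lymphatic endothelial markers were tested and lay above 0, with a median of 0.54 (smallest limma adjusted p 0.134). Of these, 5 had an unadjusted p under 0.05, as did 8.03% of everything tested. For 4 the APJ KO arrays lay above all wild-type arrays, beside 6.37% of everything tested. The markers were listed with earlier results of these data known, so these shares give no independent support. The summed level of the 6 was 9.08 to 9.28 in APJ KO and 8.99 to 9.23 in wild type. At least 95.3% of it was the Ccl21a probe, and without that probe it was 4.47 to 4.67 in APJ KO and 3.89 to 4.11 in wild type. Of 8 keratinocyte markers 7 were tested, all below 0, with a median of -1.28 and a summed level of 3.37 to 3.47 in APJ KO and 3.35 to 5.01 in wild type. It turned on single wild-type arrays: leaving out wild type replicate 3 gave -0.42, leaving out wild type replicate 1 gave -2.02, and the arrays of slide 1 alone gave -0.20. Whether any of these had a part in the values of Aplnr, Rgs1, Rgs10, Rgs18, Gna15, Gpsm3 or the other genes was not tested.

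Other genes of the G-protein family, outside the list, had no call in either direction. Of 30 listed, 27 had a probe and 15 were tested. None passed (smallest limma adjusted p 0.754), none had an unadjusted p under 0.05, and the median difference was -0.02. Those with the smallest unadjusted p were Gngt2, a γ subunit of cone photoreceptors (0.21), Grk3, a receptor kinase recruited by Gβγ (0.57), Rgs9bp, the membrane anchor of Rgs9 (-0.23), and Ric8b, a chaperone of Gαs and Gαolf (0.13).

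Effectors and second-messenger genes included 1 that rose, Pde10a, a phosphodiesterase that degrades cyclic nucleotides. Of 42 effectors listed, 33 were tested, and 1 was higher and 0 lower, beside 0.367% higher and 0.186% lower of everything tested. Of the 33, 22 lay above 0 and 11 below, where 43.5% of everything tested lay above 0. The median difference was 0.06. Adcy2, Adcy3 and Adcy5 entered the test through APJ KO alone, all of them above 0, so their signs and sizes give no support. The other 30 were well above background on all 6 arrays. Pde10a read 0.68, 0.57 and 0.59 on the APJ KO arrays, against -0.05, -0.15 and -0.08 on the wild-type arrays. The groups were well apart, and the difference was 0.70 ± 0.08, a ratio of 1.63 (limma adjusted p = 0.0275). A second, dimmer Pde10a probe gave 0.47 with overlapping arrays. The call was lost with the replicate block (limma adjusted p = 0.0739), with the mean over its probes (0.177), with normexp background correction (0.0505), with no filter on dim probes (0.286) and with slide 1 alone (0.145). It was also lost without any 1 array, the adjusted p being 0.135, 0.128 and 0.0834 without APJ KO replicates 1 to 3, and 0.119, 0.171 and 0.0886 without wild type replicates 1 to 3.

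Further effector genes had the smallest unadjusted p after Pde10a without passing. Pde4d and Pde4b, which encode phosphodiesterases specific for cyclic AMP, differed by 0.73 ± 0.15 and 0.51 ± 0.14 (limma adjusted p = 0.148 and 0.282). Prkar2b, a regulatory subunit of protein kinase A, differed by 0.35 ± 0.09 (0.234). For each of these 3 every APJ KO array lay above every wild-type array. Of the 33 tested effectors, arrays did not overlap for 5 above wild type and 2 below, beside 6.37% and 5.86% of everything tested. The 2 below were Itpr2 and Itpr3, which differed by -0.20 and -0.24 (limma adjusted p = 0.654 and 0.575). Pde4d passed under 1 of the 14 alternatives, the slide block (adjusted p = 0.0297). Adenylyl cyclase and phospholipase Cβ genes had no call in either direction, and 9 effector genes, Adcy1, Adcy8, Adcy10, Plcb2, Pde3a, Rap1gap, Kcnj3, Kcnj5 and Kcnj6, were too dim to test.

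**Figure D5:**
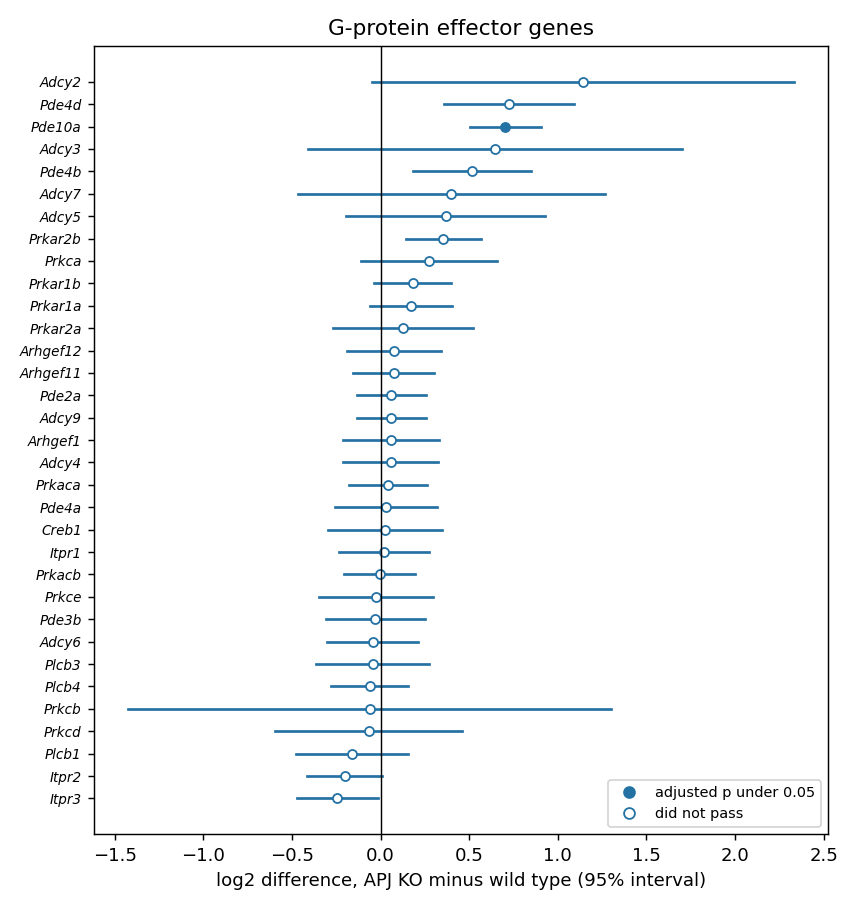
Log2 difference, APJ KO minus wild type (horizontal axis), with its 95% interval for the 33 tested effector genes, ordered by difference. Adcy2, Adcy3 and Adcy5 entered the test through APJ KO alone. Pde10a, at 0.70, is the 1 filled point, and Pde4d, Pde4b and Prkar2b are open points whose intervals lie above 0. Itpr3, at -0.24, is an open point whose interval lies below 0.

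Genes known to act downstream of APJ in endothelium did not pass. Of 17 listed, 16 were tested, 7 above and 9 below 0, with a median of -0.0045, and Fgf2 was too dim to test. At an unadjusted p under 0.05 there were 1 higher and 2 lower, where 8.03% of everything tested had such a p. Cxcr4, a chemokine receptor, differed by 0.49 ± 0.17 and its ligand gene Cxcl12 by -0.61 ± 0.21, with limma adjusted p values of 0.460 and 0.472. Gja4, an arterial gap junction gene, differed by -0.40 and Fgfr1, a fibroblast growth factor receptor gene, by 0.20 (limma adjusted p = 0.590 and 0.667). Cxcl12 passed under 1 of the 14 alternatives, the slide block (adjusted p = 0.0322).

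Of the neighbours of Aplnr on chromosome 2, 1 passed the test, Lrrc55, which entered it through wild type alone. Among the 3 protein-coding genes with a probe on each side of Aplnr, 4 were tested. Of these, 1 was lower, beside 0.186% of everything tested, and all 4 lay below 0 with a median of -0.41. For 3 of the 4, Lrrc55 among them, arrays did not overlap downward, beside 5.86% of everything tested. Lrrc55, an auxiliary subunit gene of potassium channels, was the nearest with a probe on 1 side and Tnks1bp1 on the other. Lrrc55 read -6.02, -6.47 and -4.87 on the APJ KO arrays, against -2.12, -1.68 and -1.80 on the wild-type arrays. It passed as lower in APJ KO (limma adjusted p = 0.0206), but it entered the test through wild type alone, with 1 of 3 APJ KO arrays well above background. Its call, its lack of overlap and its part in the counts and median above thus give no support. The fitted difference of -3.92 ± 0.39 is no measured size, and with normexp background correction it was -1.14. Its call was lost with the replicate block (limma adjusted p = 0.0861), with no filter (0.168) and without APJ KO replicate 1 (0.112), APJ KO replicate 2 (0.0629), wild type replicate 1 (0.0748), wild type replicate 2 (0.13) or wild type replicate 3 (0.0571). Tnks1bp1, which encodes a tankyrase-binding protein, read 1.21, 1.13 and 1.07 on the APJ KO arrays, against 1.67, 1.79 and 1.70 on the wild-type arrays. Those groups did not overlap, and its difference of -0.59 ± 0.09 missed the threshold (limma adjusted p = 0.0528) but passed when the slide was a block (0.0353) or under quantile normalisation (0.0497). P2rx3, an ATP-gated channel gene, differed by -0.24 and Ssrp1, a histone chaperone gene, by -0.07. The olfactory receptor genes Olfr987 and Olfr988 were too dim to test.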

How the data were processed

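RNA of 3 APJ KO and 3 wild-type samples was labelled with Cy3 and hybridised to 6 one-colour arrays. The deposited scanner files hold a linear fluorescence intensity per spot, and their headers name version 10.7.3.1 of Agilent Feature Extraction. The authors' deposited table holds the same intensity times 1 constant per array (2.29 to 3.69), with column medians of 60.3 to 66.98, so it is linear and uncentred. The origin of these constants is not given here.

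Processed intensities of 59305 spots (55681 probes) were taken to log2, and each array's 75th percentile was subtracted. No spot was saturated, and 126 to 179 outlier spots per array were left out. A probe was tested if well above background on every array of at least 1 genotype, and a gene was represented by its brightest probe. Symbols came from a RefSeq gene table matched by accession (26413 probes, 47.4%), and no coordinates are given because that table follows another assembly than the array. Genotype was the only term of the fit, made with limma 3.58.1 under R 4.3.3, two-sided, adjusted by Benjamini-Hochberg over 24232 tests at a threshold of 0.05. The fit was tested on simulated data.

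The genes and all lists were chosen with earlier results of these data known. Per-array values are given for Aplnr, Apln and genes of the list with an unadjusted p under 0.05, for list members outside it only those past the threshold or up to 4 with the smallest p were to be named, and genes chosen after their values were seen are said to be so. Those also include Tnks1bp1's per-array values, Itpr2, Itpr3, the dim genes named and the genes named for entering the test through APJ KO alone.

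Deviations from the genotype means of same-numbered samples correlated at 0.228, 0.152 and 0.646, all over 0.1. Crossed pairs within slide 1 correlated at 0.28 and 0.356, more than the same-numbered pairs of that slide. Pairing by replicate number therefore cannot be told apart from sharing a slide. The reported fit held neither the replicate number nor the slide. Alternatives were background correction by normexp, quantile normalisation, the authors' values, no filter, the mean over probes, the slide or the replicate number as a block, slide 1 alone and leaving out each array.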

Additional observations from a re-analysis of the deposited data

How the results depend on the processing

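Aplnr kept its direction in all 14 alternatives and its call in 6 of them. It passed with normexp, quantile normalisation, the authors' values, the mean over probes, a slide block and without APJ KO replicate 3, at limma adjusted p values between 0.0139 and 0.036. The difference was -1.69 (adjusted p = 0.0789) with the replicate block, -1.69 (0.186) with no filter, where more probes were tested, and -1.76 (0.0856) on slide 1 alone, where fewer samples were; with 1 array left out it ran from -1.84 to -1.57. The count of genes of the list that fell was therefore 0 with the replicate block, with no filter and on slide 1 alone, and 0 to 1 with 1 array left out; none rose in any fit. Apln stayed above 0 and short of the threshold in all 14, from 0.17 to 0.33 with 1 array left out. Over everything tested the counts were 185 higher and 101 lower with a slide block, 4 and 1 with the replicate block, 3 and 0 with no filter, 9 and 2 on slide 1 alone, and 11 to 45 and 1 to 27 with 1 array left out. What moved these counts was not tested. The replicate block changed no other call in the list. Of the 43 genes 24 kept their sign in every alternative and 19 did not, the largest reported difference among those being 0.32. The sign turned for Gna11 (-0.00535) and Rgs19 (-0.0194) under normexp, for Arrb2 (0.00238) with the authors' values, and on slide 1 alone for Gnb2 (-0.00013), Gnb5 (-0.0183), Gng5 (-0.0265), Rgs7 (-0.23) and Rgs19 (-0.0148). With 1 array left out the lowest and highest differences of genes that turned were Gnai3 -0.0933 to 0.27, Gnaz -0.0494 to 0.22, Gna11 -0.10 to 0.15, Gna12 -0.0291 to 0.51, Gna13 -0.0562 to 0.28, Gna14 -0.46 to 0.40, Gna15 -0.16 to 0.00227, Gnb2 -0.0515 to 0.0503, Gnb5 -0.11 to 0.19, Gng5 -0.0313 to 0.0701, Rgs1 -0.14 to 0.87, Rgs7 -0.44 to 0.35, Rgs14 -0.28 to 0.12, Rgs16 -0.25 to 0.13, Rgs18 -0.21 to 0.69, Rgs19 -0.11 to 0.10, Arrb1 -0.13 to 0.00188, Arrb2 -0.17 to 0.0847 and Gpsm1 -0.11 to 0.0835. Normexp on mean spot signals, as planned, was not run because the files used here hold median spot signals, which were used instead. That choice and slide 1 alone were made after seeing the data. Signal over background limited Rgs4 and Rgs17, and also the call and the size for Lrrc55.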
